A study of Mus musculus and Homo sapiens with 9 samples.

Results

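The E2F and DP transcription factors are the family that switches on the genes of the G1/S transition, and they were followed here as the 10 genes *E2F1* to *E2F8*, *TFDP1* and *TFDP2*. The genes were chosen by symbol alone, among the 64252 rows of the J.gamma1 count table and, in mouse case, the 43432 rows of the mouse T cell table. All 10 were present, and all 10 passed the filter on low counts, in both tables. J.gamma1, a line derived from Jurkat, models T-ALL (T cell acute lymphoblastic leukemia). Its cells stably carried either a control short hairpin RNA (sh-NC, 2 libraries) or a hairpin against *IRF2BP2*, a transcriptional coregulator (sh-IRF2BP2, 2 libraries). Which of the study's hairpins was sequenced is not given in the sources used here, so the 2 sh-IRF2BP2 libraries may share 1 hairpin and its off-targets. The mouse libraries were made from splenic CD3+ T cells, sorted magnetically, of Vav-iCre+/-;Irf2bp2fl/fl animals (knockout, 2 libraries) and of controls (3 libraries), which the labels call wild type and the study's text calls Vav-iCre-/-;Irf2bp2fl/fl, so that by the latter account both groups carry the floxed alleles. Vav-iCre acts across the hematopoietic lineage, so the other blood cells of the knockout animals also lost the gene, and the age of the animals sequenced is not given in the labels.

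An E2F protein binds DNA as a dimer with a DP protein, except for E2F7 and E2F8, which bind without one. E2F1, E2F2 and E2F3 are the activators, held in check by the retinoblastoma protein until cyclin-dependent kinases release them. E2F4 and E2F5 act mainly as repressors with the pocket proteins p107 and p130 in resting cells, and E2F6 represses germline genes as part of a Polycomb complex. E2F7 and E2F8 are themselves targets of the activators and repress the same promoters later in S phase. In T cells, E2F activity accompanies the exit from rest, and E2F1 and E2F2 are known to limit T cell proliferation in the mouse.

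Because several family members are known targets of E2F proteins, the DNA around their transcription starts was read for the E2F words TTTGGCGC, TTTGCCGC, TTTCGCGC and TTTCCCGC, on both strands, from 250 bases before the start to 50 bases from it on. None of the words found overlapped another. In human DNA (hg38, at the start of the canonical GENCODE transcript), the windows of 6 of the 10 members held at least 1 of the words, against 4.37% of 19970 windows of protein-coding genes. These were *E2F1*, with 2 words, and *E2F2*, *E2F3*, *E2F5*, *E2F8* and *TFDP1*, with 1 each. In mouse DNA (RefSeq windows, GRCm38.p6), 8 members had 12 windows in all, up to 2 for a gene. A word lay in 5 of the 12 windows, against 2.26% of all 32851. These were windows of *E2f2*, *E2f3* and *E2f7* and both windows of *Tfdp1*, which overlap and share the word. The word TTTGAA, known as the CHR element of genes expressed in G2 and M phase, was present for human *E2F3* and for mouse *E2f2*, *E2f3* and *E2f8*. It lay in 11.5% of the human and 17.9% of the mouse windows, so it is common by its length. A match describes the letters only and not binding.

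The following windows are shown for *TFDP1*, which fell in J.gamma1 cells, and for the activator *E2F1*. None of the activators changed significantly in those cells. The windows of *E2f2* and *E2f7*, which rose in the knockout T cells, are shown too. The E2F words are in capitals, and each window is written 5′ to 3′ on the gene's strand. The human windows are chr13:113584503-113584802 (plus strand) for *TFDP1* and chr20:33686336-33686635 (minus strand) for *E2F1*, and the mouse windows are chr4:136172024-136172323 for *E2f2* and chr10:110745189-110745488 for *E2f7*, both on the plus strand.
TFDP1: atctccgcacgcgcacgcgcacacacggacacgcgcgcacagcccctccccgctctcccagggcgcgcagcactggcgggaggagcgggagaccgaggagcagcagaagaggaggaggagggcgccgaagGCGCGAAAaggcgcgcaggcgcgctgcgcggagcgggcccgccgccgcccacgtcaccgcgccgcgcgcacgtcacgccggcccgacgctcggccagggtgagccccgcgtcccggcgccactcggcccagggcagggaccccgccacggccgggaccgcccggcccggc
E2F1: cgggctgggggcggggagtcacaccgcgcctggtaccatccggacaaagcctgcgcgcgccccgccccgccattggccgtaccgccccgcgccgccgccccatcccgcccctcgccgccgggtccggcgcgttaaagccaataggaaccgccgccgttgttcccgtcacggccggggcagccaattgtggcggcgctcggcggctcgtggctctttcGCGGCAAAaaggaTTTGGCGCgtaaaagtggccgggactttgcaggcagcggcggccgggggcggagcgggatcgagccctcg
E2f2: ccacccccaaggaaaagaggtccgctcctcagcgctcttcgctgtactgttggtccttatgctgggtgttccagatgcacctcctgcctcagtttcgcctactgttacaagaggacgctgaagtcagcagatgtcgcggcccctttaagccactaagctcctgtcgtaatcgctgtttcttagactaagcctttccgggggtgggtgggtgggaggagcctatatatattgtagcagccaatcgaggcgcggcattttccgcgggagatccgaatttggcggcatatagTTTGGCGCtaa
E2f7: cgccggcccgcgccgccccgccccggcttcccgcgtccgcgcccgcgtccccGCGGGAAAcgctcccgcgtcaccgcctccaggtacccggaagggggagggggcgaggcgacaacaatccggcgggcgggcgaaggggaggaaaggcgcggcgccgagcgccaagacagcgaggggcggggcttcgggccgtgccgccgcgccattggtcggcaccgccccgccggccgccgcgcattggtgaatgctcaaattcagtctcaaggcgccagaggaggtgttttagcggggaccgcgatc

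The word of *TFDP1* lay at bases -120 to -113, counted back from the start, and those of *E2F1* at -33 to -26 and -20 to -13. The word of *E2f2* lay behind the RefSeq start of its window, at bases 40 to 47, and that of *E2f7* at -198 to -191. The *E2f2* window ends before the gene's GENCODE start at chr4:136172394, so the word lies upstream of that start. The same word was found in both species for *TFDP1* (TTTCGCGC), *E2F2* (TTTGGCGC) and *E2F3* (TTTCCCGC). The surroundings were compared base by base for *E2F3* alone, so the likeness is not shown to be particular to it. Of 56 bases around the word of *E2F3*, 55 were identical, and the following stretches show them, with the word in capitals.
E2F3: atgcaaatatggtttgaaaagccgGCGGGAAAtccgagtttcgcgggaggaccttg
E2f3: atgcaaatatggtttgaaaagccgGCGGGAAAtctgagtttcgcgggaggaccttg

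Human *E2F3* and mouse *E2f3* gave no significant change in either table, as given for each gene later. The windows of human *E2F7* and of mouse *E2f1*, *E2f8* and *Tfdp2*, all of which changed, held none of the E2F words. Those of mouse *E2f1* (chr2:154569377-154569676) and *Tfdp2* (from chr9:96258455 on) lay inside the genes as annotated, away from their outermost starts. The DNA at those outermost starts was not searched, so a missing word says nothing about it.

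The depth of the libraries lay between 26648204 and 31120236 counts in J.gamma1 cells and between 16668577 and 37177523 in the mouse T cells, where control replicate 3 was the shallowest. *IRF2BP2* had 5294 and 6166 counts with sh-NC and 2299 and 2766 with its hairpin, and *Irf2bp2* had 4145, 4594 and 1915 counts in the controls and 0 and 0 in the knockout libraries. Replicates differed by more than the sampling noise (chi-square per gene of at least 20.03). Nothing in the labels says that J.gamma1 replicates came from separate cultures, so the p-values measure the spread between these libraries, which may be technical. The biological coefficient of variation was 0.165 in J.gamma1 and 0.271 in the mouse libraries, with 2 and 3 residual degrees of freedom. Levels are given as CPM, the usual scaling of counts to a common library size, on sizes scaled by TMM. A gene was called when the adjusted p of edgeR's quasi-likelihood test (Benjamini-Hochberg, over all genes) was under 0.05 and the log2 fold change was at least 0.5 in size. The 8 T cell markers (the CD3 chains, *CD2*, *CD5*, *CD247*, *LCK* and *ZAP70*) were detected in every library, with a summed level of 1535 to 1847 CPM in J.gamma1 and 2527 to 3995 CPM in the mouse libraries. In the knockout libraries, 15 erythroid markers summed to more than the T cell markers, at 4861 and 6703 CPM against 2527 and 2735 CPM. Most of that sum was globin mRNA, so it does not give a share of cells. The knockout means were 1313 (*Hba-a1*), 818 (*Hba-a2*), 1475 (*Hbb-bs*) and 897 CPM (*Hbb-bt*), against control means of 402, 276, 404 and 210 CPM. Their log2 fold changes of 1.71, 1.57, 1.87 and 2.09 were not called by edgeR, although the groups of each gene did not overlap.

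In J.gamma1 cells, the family was expressed throughout, and its mRNA was led by a DP gene. Per kilobase of exon, *TFDP1*, the main DNA-binding partner of the E2F proteins, stood highest in the sh-NC libraries, with 70.1 ± 2.94 CPM per kilobase (SD, n = 2). *E2F1* followed at 29.4 ± 1.55, then *E2F4* at 26.1 ± 1.64, *E2F3* at 21.0 ± 1.88 and *E2F2* at 19.9 ± 0.518 CPM per kilobase. *TFDP2* (17.2 ± 9.71), *E2F8* (16.2 ± 0.822) and *E2F7* (14.6 ± 2.77) came next, and *E2F6* (7.72 ± 0.874) and *E2F5* (4.96 ± 0.219) were lowest. In this order, the libraries of neighbouring genes overlapped from *E2F3* down to *E2F7*, and no other neighbours overlapped. With the longest transcript in place of all exons, *E2F4* stood above *E2F1*.

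The control mouse T cells had another make-up. *E2f4*, the repressor, was by far the highest in the controls, with 46.8 ± 5.43 CPM per kilobase (SD, n = 3). *Tfdp1* followed at 13.1 ± 1.81, *E2f5* at 6.92 ± 0.350, *E2f2* at 5.68 ± 0.288 and *E2f6* at 4.49 ± 0.255. The remaining 5 genes were low, with *Tfdp2* at 2.09 ± 0.0795, *E2f3* at 1.97 ± 0.204, *E2f1* at 1.67 ± 0.257 and *E2f8* at 1.44 ± 0.570 CPM per kilobase, each overlapping its neighbour in the order. *E2f7* was lowest at 0.141 ± 0.0336, which was 20 to 57 counts in a library. With the longest transcript in place of all exons, *E2f6* (8.43 CPM per kilobase) stood above *E2f5* and *E2f2*, and *E2f8* (2.12) above *E2f3* and *E2f1*.

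As shares of the summed level of the 8 E2F genes per kilobase, the activators E2F1 to E2F3 made up 48.9% and 51.7% in the sh-NC libraries but 12.3% to 15.2% in the control T cells. E2F4 and E2F5 made up 22.0% and 22.3% in the sh-NC libraries and 75.8% to 79.0% in the control T cells. The tables were scaled separately, and both systems differ in species, so that shares within a library are the only values set side by side here. In the sh-IRF2BP2 libraries the activators had 53.7% and 54.1%, and E2F7 with E2F8 had 17.3% and 18.7%, against 21.0% and 23.0% in sh-NC. In the knockout T cells the activators had 21.3% and 21.9%, and E2F7 with E2F8 had 10.6% and 11.5%, against 1.84% to 3.03% in the controls. Both shares were thus above the controls' range in each knockout library, and E2F4 with E2F5 lay below the controls' range, at 62.0% and 62.3%.

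**Figure D1:**
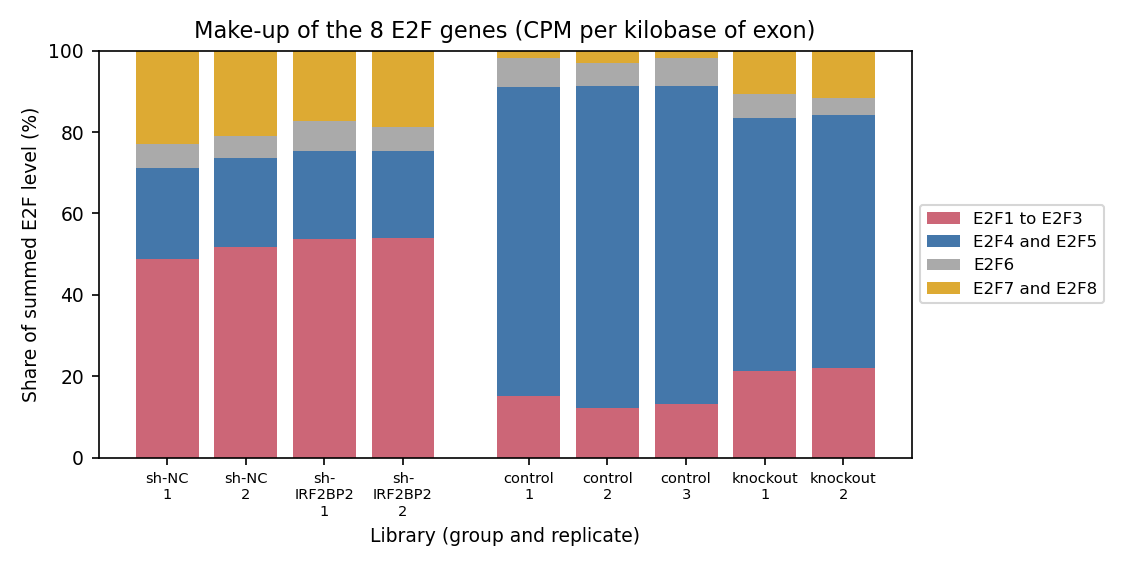
Share of the summed level of the 8 E2F genes (CPM per kilobase of exon, y axis, in percent) that each class made up in every library (x axis, group and replicate number). E2F4 and E2F5 took 75.8% to 79.0% in the control T cells and 62.0% and 62.3% in the knockout, while E2F1 to E2F3 took 48.9% to 54.1% in J.gamma1 cells.

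The first comparison asked how the family's mRNA changed when *IRF2BP2* was knocked down in J.gamma1 cells. *TFDP1* and *E2F7* were called lower, and no member was called higher. The 2 called of 10 stand beside 5.01% of the 15819 genes tested that were called lower. No member was called higher by edgeR, against 5.46% of all genes, with 1 member higher at an unadjusted p under 0.05 and 0 called higher by DESeq2. The median log2 fold change was -0.28 over the 10 members and 0.01 over all genes. In bulk libraries, a lower share of cells that express a gene and less RNA per cell cannot be told apart.

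*TFDP1* (ENSG00000198176, chr13:113584721-113641473 on the plus strand, hg38) was at 270 and 255 CPM with sh-NC and at 161 and 144 CPM with sh-IRF2BP2. The groups lay well apart, and both knockdown libraries were below both controls. The log2 fold change was -0.78 (SE 0.124, adjusted p = 0.0086), which is 0.581 times the control level. Its 3 annotated processed copies held at most 6 counts in any library. *TFDP2* (chr3:141944428-142149544, minus strand), the other DP gene, went the same way in the group means but not in every library, with 123 and 287 CPM in sh-NC and 127 and 48.9 CPM in sh-IRF2BP2. The groups overlapped, and the log2 fold change of -1.22 (SE 0.474, 95% interval -2.32 to -0.13) was not called (adjusted p = 0.14). Its replicates were 2.32-fold and 2.60-fold apart within the groups. Of 9755 genes of at least 10 CPM, 0.543% differed as much between the sh-NC libraries and 0.308% as much between the sh-IRF2BP2 libraries. Without sh-NC replicate 1 or without sh-IRF2BP2 replicate 1, *TFDP2* was called lower (log2 fold changes of -1.71 and -2.09).

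*E2F7* (ENSG00000165891, chr12:77021248-77065569, minus strand), the atypical repressor, was at 104 and 79.4 CPM in sh-NC and at 63.5 and 55.1 CPM in sh-IRF2BP2. The groups did not overlap, although the sh-NC libraries themselves were 1.31-fold apart. The log2 fold change was -0.63 (SE 0.157, adjusted p = 0.041). Its relative *E2F8* was at 69.6 and 64.8 CPM against 53.3 and 54.9 CPM. These libraries lay apart by less, and the log2 fold change of -0.31 (95% interval -0.58 to -0.04) was not called (adjusted p = 0.13).

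None of the activators was called. *E2F1* was at 76.2 and 82.1 CPM in sh-NC and at 84.3 and 73.3 CPM in sh-IRF2BP2, with a log2 fold change of -0.01 (95% interval -0.29 to 0.28). *E2F2* was at 111 and 107 CPM against 118 and 107 CPM, with a log2 fold change of 0.05 (95% interval -0.22 to 0.32). For both genes the groups overlapped, and the intervals hold changes of up to 0.32 on the log2 scale. *E2F3* was at 116 and 102 CPM against 94.5 and 87.4 CPM, without overlap, and its log2 fold change of -0.26 was not called (adjusted p = 0.22).

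Of the repressors of resting cells, *E2F4* was at 97.9 and 89.5 CPM in sh-NC and at 76.6 and 67.4 CPM in sh-IRF2BP2 (log2 fold change -0.38, SE 0.124, adjusted p = 0.090). *E2F5* lay the other way, at 30.7 and 28.8 CPM against 44.9 and 37.8 CPM (log2 fold change 0.47, SE 0.141, adjusted p = 0.070). Neither gene overlapped between the groups and neither was called, although *E2F5* was called higher without sh-NC replicate 1 (log2 fold change 0.51, adjusted p = 0.041). *E2F5* overlaps a protein-coding gene on the opposite strand, and the sources used here do not say if strand was taken into account. *E2F6*, which binds with Polycomb proteins, was at 33.9 and 28.9 CPM against 39.4 and 28.8 CPM, and the groups overlapped (log2 fold change 0.12, adjusted p = 0.72). Its 4 annotated processed copies held at most 54 counts in a library, against at least 848 for the gene itself.

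**Figure D2:**
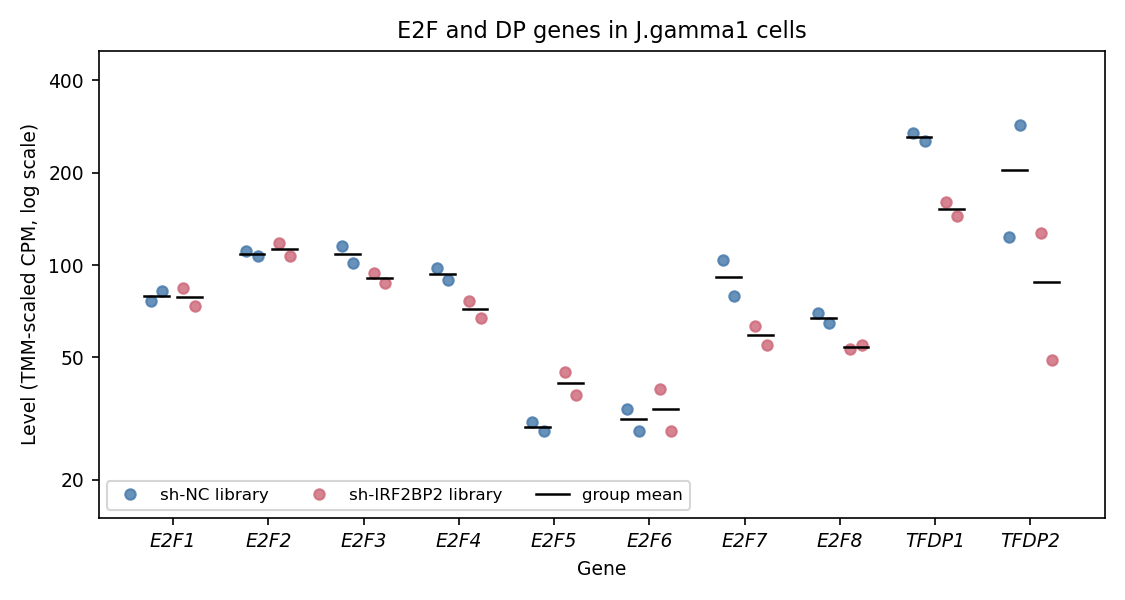
Level of each E2F and DP gene (x axis) in J.gamma1 cells, in TMM-scaled CPM on a log scale (y axis), with a point for each library and a bar for the group mean (n = 2 per group). TFDP1 and E2F7 lay lower in both sh-IRF2BP2 libraries, whereas the 4 TFDP2 libraries ran from 48.9 to 287 CPM and overlapped between the groups.

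These calls rested on few libraries. Without sh-IRF2BP2 replicate 2, 0 of the 10 members were called by edgeR (*TFDP1* with a log2 fold change of -0.71 and an adjusted p of 0.058, *E2F7* with -0.53 and 0.16), and 518 genes of all were then called higher and 516 lower, in place of 864 and 793. The *E2F7* call was also lost without either sh-NC replicate 1 (log2 fold change -0.43) or sh-IRF2BP2 replicate 1 (adjusted p = 0.056), and with genes of at least 1 count in any library tested (adjusted p = 0.10).

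The second comparison asked the same of splenic T cells that lacked *Irf2bp2*. Here 5 members were called higher and none lower. These were the activators *E2f1* and *E2f2*, the atypical repressors *E2f7* and *E2f8* and the DP gene *Tfdp2*. The 5 of 10 stand beside 2.68% of the 15350 genes tested that were called higher. None was called lower by edgeR, against 0.15% of all genes, with 0 members lower at an unadjusted p under 0.05 and 0 called lower by DESeq2. The median log2 fold change over the 10 members was 0.77, and that of all genes was -0.02.

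*E2f8* (ENSMUSG00000046179, chr7:48866429-48881596, minus strand, mm10) had the highest fold among the members, with 5.97, 11.4 and 6.13 CPM in the controls and 46.7 and 62.0 CPM in the knockout. Control replicate 2 was the highest of the controls and lay far below both knockout libraries. The log2 fold change was 2.78 (SE 0.319, adjusted p = 0.011), a 6.88-fold difference. *E2f7* (ENSMUSG00000020185, chr10:110745439-110787384, plus strand) was at 0.972, 1.58 and 1.25 CPM in the controls and at 6.76 and 7.58 CPM in the knockout. This was a log2 fold change of 2.50 (SE 0.328, adjusted p = 0.016), or 5.64-fold, from counts of 36, 57 and 20 to 259 and 269. Both genes overlap a noncoding gene on the opposite strand.

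*E2f1* (ENSMUSG00000027490, chr2:154559407-154569892, minus strand), the activator most often tied to S phase entry, was at 4.91, 6.20 and 4.69 CPM in the controls and at 11.9 and 16.9 CPM in the knockout. The log2 fold change was 1.44 (SE 0.260, adjusted p = 0.041), or 2.72-fold. *E2f2* (ENSMUSG00000018983, chr4:136172394-136196057, plus strand), the most abundant activator of these cells per kilobase, was at 28.6, 26.1 and 28.5 CPM and at 60.4 and 72.7 CPM. The controls lay within 1.10-fold of each other, and the log2 fold change was 1.26 (SE 0.138, adjusted p = 0.010), or 2.40-fold. *E2f3* was at 11.9, 10.3 and 9.76 CPM against 14.4 and 16.5 CPM, without overlap, and its log2 fold change of 0.53 was not called (95% interval 0.06 to 1.00, adjusted p = 0.26).

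Among the DP genes, *Tfdp2* (ENSMUSG00000032411, chr9:96196275-96323646, plus strand) was at 29.5, 28.1 and 30.3 CPM in the controls and at 49.97 and 59.1 CPM in the knockout. The log2 fold change was 0.90 (SE 0.136, adjusted p = 0.024), or 1.86-fold, with controls within 1.08-fold of each other. *Tfdp1* was at 47.6, 54.8 and 41.5 CPM against 74.9 and 74.9 CPM. Its libraries lay apart too, and its log2 fold change of 0.64 (SE 0.148) was not called by edgeR (adjusted p = 0.083) but was called by DESeq2 (adjusted p = 0.012) and, without control replicate 2, by edgeR (log2 fold change 0.76, adjusted p = 0.029). *Tfdp1* remained the larger part of the DP mRNA per kilobase, at 84.0% to 88.2% in the controls and 82.9% and 85.1% in the knockout.

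The repressors *E2f4*, *E2f5* and *E2f6* were not called. *E2f4* was at 101, 127 and 116 CPM in the controls and at 119 and 146 CPM in the knockout, with overlap and a log2 fold change of 0.20 (95% interval -0.17 to 0.58). *E2f5* was at 12.3, 13.0 and 11.8 CPM against 11.1 and 12.0 CPM (log2 fold change -0.09, 95% interval -0.54 to 0.35), and *E2f6* at 25.4, 24.01 and 26.9 CPM against 30.3 and 25.9 CPM (log2 fold change 0.14, 95% interval -0.22 to 0.51). The groups of both genes overlapped.

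**Figure D3:**
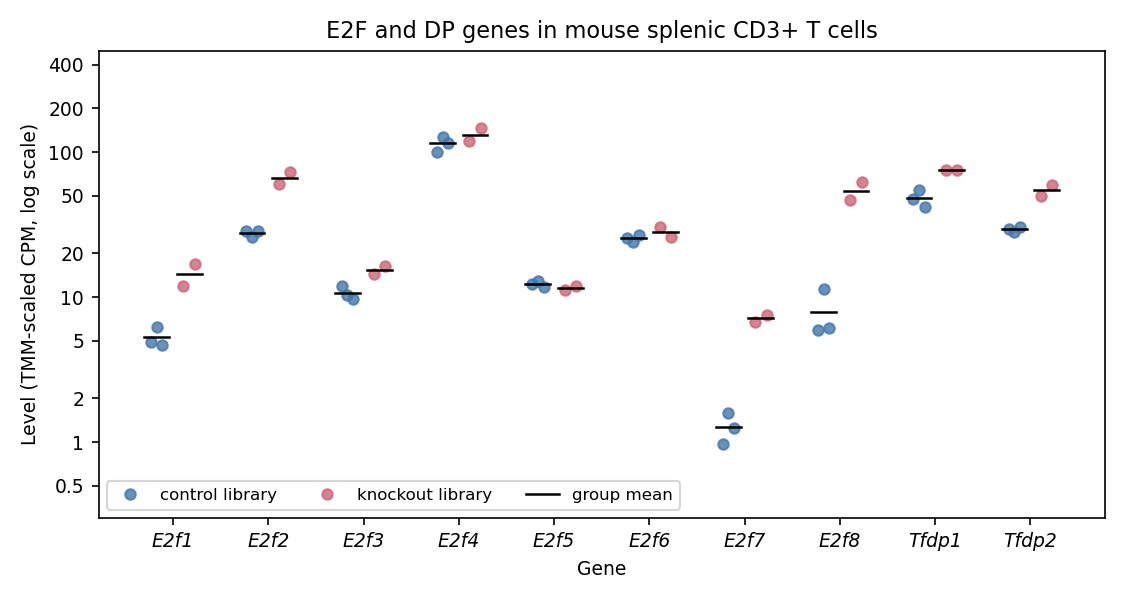
Level of each E2F and DP gene (x axis) in splenic CD3+ T cells, in TMM-scaled CPM on a log scale (y axis), with a point for each library and a bar for the group mean (3 control and 2 knockout libraries). E2f7 and E2f8 lay furthest above the controls in the knockout, and E2f4, the most abundant of them, overlapped between the groups.

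The number of calls depended on the libraries included, whereas the directions did not. Without control replicate 1, without knockout replicate 1 and without knockout replicate 2, 0 of the members were called by edgeR. Among all genes, 6, 47 and 9 were then called higher, in place of 412. Without control replicate 2, 6 members and 594 of all genes were called higher, and without control replicate 3, 4 members and 391 genes. In each of these fits, 9 of the 10 members were higher in the knockout, and the log2 fold change stayed between 2.55 and 3.18 for *E2f8*, between 2.33 and 2.72 for *E2f7*, between 1.10 and 1.37 for *E2f2*, between 1.15 and 1.65 for *E2f1* and between 0.75 and 0.99 for *Tfdp2*.

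**Figure D4:**
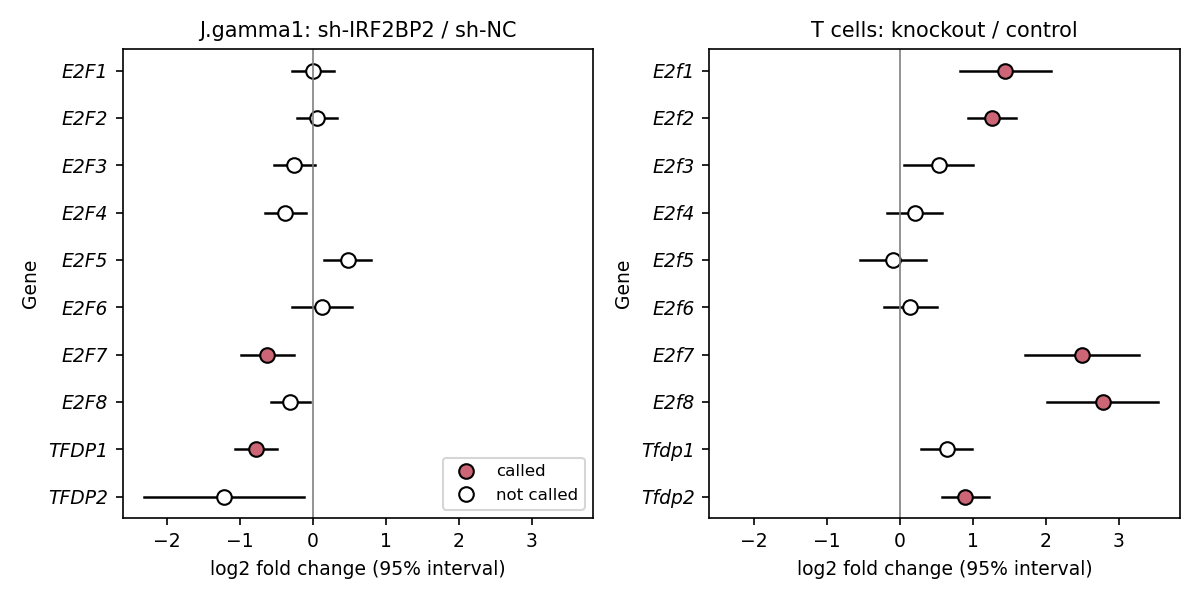
log2 fold change of each E2F and DP gene (y axis) with its 95% interval (x axis and bars), for sh-IRF2BP2 against sh-NC in J.gamma1 cells on the left and for knockout against control in T cells on the right, with called genes filled. TFDP1 and E2F7 are the 2 called on the left, both lower, and the 5 called on the right are all higher.

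The proteins that hold the E2F factors in check were read next. In J.gamma1 cells *RB1*, which binds and silences the activators, fell from 475 and 397 CPM in sh-NC to 228 and 223 CPM in sh-IRF2BP2 (log2 fold change -0.95, SE 0.136, adjusted p = 0.0059). *RBL1*, which encodes p107, was at 62.7 and 46.2 CPM against 86.0 and 77.6 CPM and was not called by edgeR (log2 fold change 0.59, adjusted p = 0.055). *RBL2*, which encodes p130, had a log2 fold change of 0.32 (adjusted p = 0.19). Of the 3 pocket protein genes, 1 was thus called lower by edgeR, beside 5.01% of all genes, and 0 higher, beside 5.46%. At an unadjusted p under 0.05, 1 was higher, and DESeq2 called 1 higher. A single call among 3 genes is no result about the list. In the knockout T cells 0 of the 3 were called by edgeR and 0 by DESeq2, with 2 higher at an unadjusted p under 0.05. *Rb1* was at 56.6, 39.4 and 77.7 CPM in the controls and at 91.0 and 108 CPM in the knockout, with a log2 fold change of 0.78 (adjusted p = 0.22).

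The DREAM and MuvB subunits join E2F4 and DP to cell cycle promoters, and MYBL2 and FOXM1 replace them there later in the cycle. Of the 7 genes, 1 was called lower in J.gamma1 cells, beside 5.01% of all genes, which is no result about the list. This was *RBBP4*, a histone-binding subunit shared with other chromatin complexes, which went from 710 and 704 CPM to 321 and 308 CPM (log2 fold change -1.17, adjusted p = 0.0022). *MYBL2* (log2 fold change 0.27, adjusted p = 0.24) and *FOXM1* (0.27, adjusted p = 0.22) were not called there. In the knockout T cells *Mybl2*, itself an E2F target, was the 1 gene called by edgeR, beside 2.68% of all genes called higher. DESeq2 called 2 genes of the list higher, and 2 were higher at an unadjusted p under 0.05. *Mybl2* was at 7.26, 13.0 and 6.32 CPM in the controls and 31.5 and 40.9 CPM in the knockout (log2 fold change 2.02, SE 0.328, adjusted p = 0.030). *Foxm1* was at 8.56, 16.2 and 9.32 CPM against 23.7 and 29.7 CPM (log2 fold change 1.23, adjusted p = 0.10). *Rbbp4* had a log2 fold change of -0.02 (95% interval -0.37 to 0.34).

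Of the 10 genes of the Polycomb complex that holds E2F6, 1 was called in J.gamma1 cells, which is near the 10.5% of all genes called in either direction and is no result about the complex. *L3MBTL2*, a subunit that reads histones, fell from 61.9 and 59.4 CPM to 27.3 and 26.4 CPM (log2 fold change -1.18, adjusted p = 0.0021). None was called in the mouse by edgeR, 0 by DESeq2, and 0 had an unadjusted p under 0.05. Of the 8 germline genes that E2F6 is known to silence, 4 passed the filter in J.gamma1 cells and 1 was called, beside the 10.5% of all genes. This was *SMC1B*, a meiotic cohesin subunit, which fell from 29.6 and 30.2 CPM to 17.7 and 18.7 CPM (adjusted p = 0.019). *STAG3*, *SYCE2* and *STK31* had log2 fold changes of 0.22, -0.74 and 0.46 and were not called. In the mouse, 3 passed and 0 were called by edgeR or DESeq2, with 2 higher at an unadjusted p under 0.05.

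Known target genes of the family were then read as mRNA levels, and E2F binding or activity was not measured. In J.gamma1 cells, 6 of 37 G1/S genes, a list of textbook E2F targets of DNA replication, fell, beside 5.01% of all genes, and none was called higher by edgeR or DESeq2 (0 also at an unadjusted p under 0.05). The median log2 fold change was -0.25, and 32 of the 37 values were negative. The falls with the largest fold were those of *CCNE2*, a cyclin of S phase entry, from 76.9 and 67.6 CPM to 37.6 and 32.9 CPM (log2 fold change -1.03, adjusted p = 0.0041), and of *PCNA*, the sliding clamp of DNA polymerase, from 435 and 494 CPM to 236 and 223 CPM (log2 fold change -1.02, adjusted p = 0.0038). *MCM3*, a subunit of the replicative helicase, and *SLBP*, which binds histone mRNA, fell by 0.61 and 0.61 on the log2 scale. Of 20 G2/M genes, 1 was called lower, which is near the 5.01% of all genes called lower and is no result about the list. This was *CDK1*, the kinase of mitotic entry, from 321 and 351 CPM to 165 and 166 CPM (log2 fold change -1.02, adjusted p = 0.0030). *TOP2A*, *MKI67* and *CENPF*, the most abundant of that list, had log2 fold changes of -0.18, 0.22 and 0.21 and were not called. Without sh-IRF2BP2 replicate 1 or 2, the G1/S genes called lower were 2 in place of 6.

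In the knockout T cells, 18 of the 37 G1/S genes rose, beside 2.68% of all genes, and none was called lower by edgeR or DESeq2 (0 at an unadjusted p under 0.05). All 37 log2 fold changes were above 0, with a median of 1.15. *Orc1*, a subunit of the origin recognition complex, went from 1.86, 1.63 and 0.876 CPM to 11.8 and 14.96 CPM (log2 fold change 3.17, adjusted p = 0.011). *Cdc6*, which loads the helicase, went from 7.07, 11.4 and 4.32 CPM to 44.5 and 51.5 CPM (log2 fold change 2.64, adjusted p = 0.018). *Rrm2*, a subunit of ribonucleotide reductase, and *Ccne2* had log2 fold changes of 2.51 and 2.44 and were also called. *Pcna*, which fell in the J.gamma1 knockdown, was at 150, 204 and 139 CPM in the controls and at 209 and 254 CPM in the knockout, with a log2 fold change of 0.49 (adjusted p = 0.29).

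Of the 20 G2/M genes, 9 rose in the knockout T cells, beside 2.68% of all genes. None was called lower by edgeR or DESeq2 (0 at an unadjusted p under 0.05). All 20 values were above 0, with a median log2 fold change of 1.88. *Mki67*, the proliferation antigen, was at 68.4, 78.1 and 45.9 CPM in the controls and at 409 and 475 CPM in the knockout, with a log2 fold change of 2.78 (adjusted p = 0.0072). *Cenpf* and *Cenpe*, of the kinetochore, and *Kif11*, a spindle motor, had log2 fold changes of 2.22, 2.07 and 1.93 and were called. Without control replicate 1, 0 of the G1/S genes and 0 of the G2/M genes were called, and without knockout replicate 1 the counts were 4 and 1, and without knockout replicate 2 they were 0 and 0.

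Markers of another cell type also differed between the groups of mouse libraries. Of 15 erythroid markers, 9 were called higher in the knockout by edgeR, beside 2.68% of all genes, and DESeq2 called 12 higher. All 15 values were above 0, with a median log2 fold change of 2.79. *Sptb*, of the red cell skeleton, had a log2 fold change of 4.40, and *Rhag* and *Slc4a1*, of the red cell membrane, 3.70 and 3.68. The summed erythroid level was 2296, 1319 and 614 CPM in the controls and 4861 and 6703 CPM in the knockout, and no erythroid marker was at 0 in any of these libraries. The 9 calls became 2 without control replicate 1, 3 without knockout replicate 1 and 2 without knockout replicate 2. The summed T cell marker level was 3369, 3995 and 3367 CPM in the controls and 2527 and 2735 CPM in the knockout. All 8 T cell markers had log2 fold changes below 0, with a median of -0.43, and 0 were called by edgeR, with 6 lower at an unadjusted p under 0.05 and 1 called lower by DESeq2. B and plasma cell markers summed to 486 to 1151 CPM in the controls and 1027 to 1402 CPM in the knockout, and myeloid markers to 41.4 to 352 and 73.8 to 119 CPM. The 7 B and plasma cell, 7 myeloid and 4 megakaryocyte markers had 0 calls by edgeR, with 1, 0 and 1 higher at an unadjusted p under 0.05 and called higher by DESeq2.

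Whether cells of the erythroid lineage contribute to the levels of *E2f1*, *E2f2*, *E2f7*, *E2f8* and *Tfdp2* or of their targets in the knockout libraries was not tested. In J.gamma1 cells the erythroid list summed to 25.9 to 33.2 CPM, with *HBB*, *RHAG* and *ALAS2* at 0 counts in every library. Of the markers tested there, edgeR called 1 of 8 T cell (*CD3D*) and 1 of 2 B and plasma cell markers (*CD79A*) lower, beside 5.01% of all genes. Their log2 fold changes were -0.79 and -2.07. Of 6 erythroid markers tested, 1 was called higher by edgeR (*HBA2*, 0.174 and 0.871 CPM in the group means), beside 5.46% of all genes. DESeq2 called 2 T cell and 1 B and plasma cell marker lower and 0 erythroid markers higher. A single call in such a list is no result about the list. The 1 myeloid and 1 megakaryocyte marker that passed the filter gave 0 calls by edgeR and DESeq2 and none at an unadjusted p under 0.05.

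**Figure D5:**
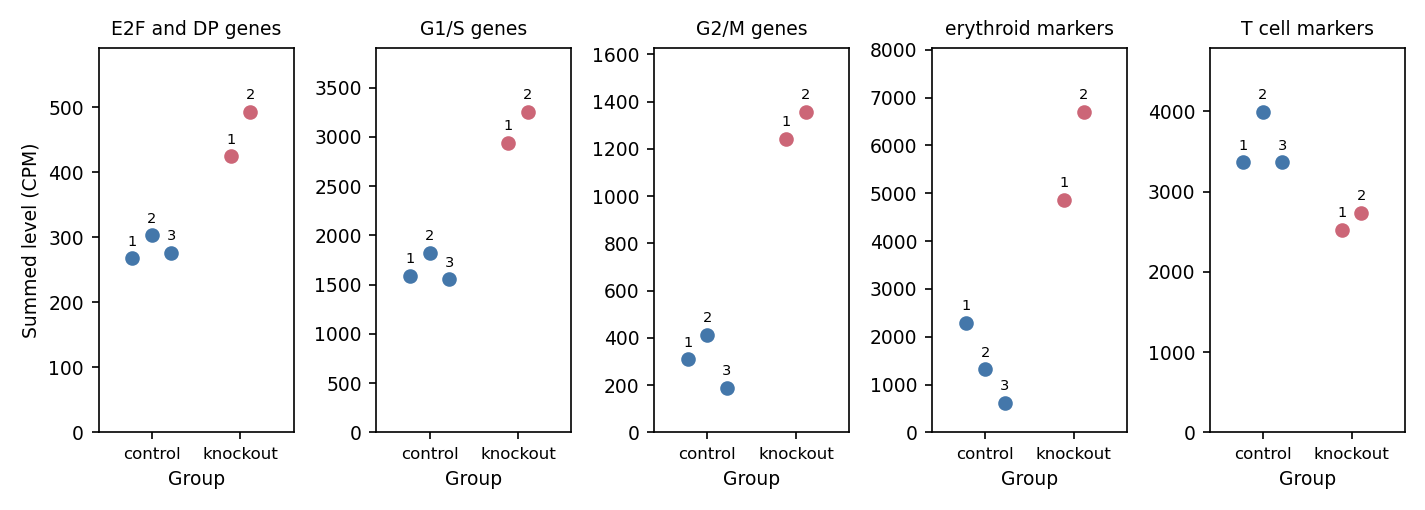
Summed level in CPM (y axes, each from 0) of the 10 E2F and DP genes, 37 G1/S genes, 20 G2/M genes, 15 erythroid markers and 8 T cell markers in each mouse library, by group (x axis), with the replicate number above each point. The first 4 sums are higher in both knockout libraries than in every control, and that of the T cell markers is lower.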

How the data were processed

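RNA was sequenced from 4 J.gamma1 and 5 mouse T cell libraries. Per the labels, total RNA was extracted with TRIzol and libraries were built with an Illumina TruSeq kit. According to the submitters' processing notes, HISAT2 2.2.0 and StringTie were used, with hg38 for human and mm10 for mouse reads. The deposited values are raw counts, 1 whole number for each Ensembl gene in each library, neither normalized nor pooled by the authors. How coverage was turned into counts, and whether strand was used, is not given in the sources used here, so counts divided by 2 were an alternative.

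Rows were restricted to identifiers of GENCODE 44 (56105 rows with 98.0% of the counts) or M21 (42462 rows with 99.8%). In R 4.3.3, edgeR 4.0.16 was used for the filter on low counts (filterByExpr), TMM scaling and the quasi-likelihood test, with 1 fit per table and no term but the condition. Calls needed an adjusted p under 0.05 over all genes and 0.5 or more in absolute log2 fold change, the fold the study used for J.gamma1 cells. A standard error is the log2 fold change divided by the square root of F. Levels per kilobase use the merged exons of a gene. As alternatives, DESeq2 1.42.0, scaling by RLE or the upper quartile, 2 other filters, all rows, other thresholds of fold, a replicate block and the omission of each library were run. The scripts were tested on simulated counts. Promoter words were searched and figures drawn in Python.

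The members, the lists (pocket proteins, DREAM, E2F6 partners, G1/S, G2/M, germline and cell type markers) and the tests were chosen with earlier results of these data known. The genes named are all members, *IRF2BP2*, the pocket, DREAM and E2F6 partner genes, and up to 4 genes of each other list, the called genes with the largest fold and then those with the highest level. *Pcna*, *CD3D*, *CD79A*, *HBA2*, the mouse globin genes and the erythroid markers at 0 were named after their values were seen. Some items that met this rule are not reported here.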

Additional observations from a re-analysis of the deposited data

Results flagged for a closer look

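Of the 10 genes, 4 lay on opposite sides in the 2 tables, in every library. How many of all genes did so was not counted, so the 4 of 10 are no result about the family. *E2F3*, *E2F7*, *E2F8* and *TFDP1* were lower in both sh-IRF2BP2 libraries than in both sh-NC libraries, with log2 fold changes of -0.26, -0.63, -0.31 and -0.78, of which those of *E2F7* and *TFDP1* were called. Their mouse counterparts were higher in both knockout libraries than in all 3 controls, with log2 fold changes of 0.53 for *E2f3*, 2.50 for *E2f7*, 2.78 for *E2f8* and 0.64 for *Tfdp1*, of which those of *E2f7* and *E2f8* were called. The difference between the tables was not tested, since they hold different species, cells and means of removing the gene. No group had the 4 libraries needed to test for a library standing apart.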

How the results depend on the processing

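In J.gamma1 cells 2 members were called, 1 with every gene of at least 1 count tested, 0 at a log2 fold of at least 1, and 0 to 3 when each library was left out. The 6 G1/S genes called became 2 at a log2 fold of at least 1 and 2 to 7 with each library left out. In the mouse, the 5 members became 0 to 6 and the 18 G1/S genes 0 to 27 when each library was left out. A library alone in its group was there assumed to vary like the other group. With the replicate number as a block, 2 members were called in J.gamma1 cells and 4 in the mouse (*E2f1* was lost, adjusted p = 0.055). The labels tie the numbers to no shared culture or litter, and same-numbered libraries deviated with correlations of 0.287 in J.gamma1 cells and of 0.21 and -0.11 in the mouse, so the numbers were not taken as pairs. The calls over all genes, 864 higher and 793 lower in J.gamma1 cells, became 319 and 396 with genes of at least 1 count, 1293 and 1174 with the block, and 418 to 1608 and 419 to 1143 with each library left out. The 412 and 23 of the mouse became 945 and 213 with DESeq2, 391 to 594 and 51 to 65 without control replicates 2 or 3, and 443 and 53 with the block. DESeq2 called 19 of the G2/M genes in place of 9, and so did the block.

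Small values changed sign, all of them in J.gamma1 cells and none of them called. These were *E2F1* without sh-NC replicate 2 (0.047) and without sh-IRF2BP2 replicate 2 (0.088), *E2F2* with upper-quartile scaling (-0.0042) and without sh-IRF2BP2 replicate 1 (-0.048), and *E2F6* without sh-IRF2BP2 replicate 1 (-0.15). With each J.gamma1 library left out, the log2 fold change ran from -0.14 to 0.088 for *E2F1*, from -0.048 to 0.12 for *E2F2* and from -0.15 to 0.32 for *E2F6*. No mouse member changed sign under any alternative. With the longest transcript in place of all exons, levels in CPM per kilobase moved by more than 1 SD to 99.4 for *TFDP1*, 35.8 for *E2F4*, 21.0 for *E2F2*, 18.1 for *E2F8*, 9.10 for *E2F6* and 5.91 for *E2F5* in sh-NC, and to 57.5 for *E2f4*, 17.2 for *Tfdp1*, 8.43 for *E2f6*, 3.99 for *Tfdp2*, 2.12 for *E2f8* and 0.231 for *E2f7* in the controls. Depth limits *E2f7* most, since its lowest control library held 20 counts. The cause of the changed values was not tested.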
